A study of Mus musculus with 4 samples.

Results

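The metallothionein genes Mt1 and Mt2, their metal sensor Mtf1 and the zinc transporter genes Slc30a1, Slc30a10, Slc39a4 and Slc39a14 were examined in mouse liver. They were chosen by symbol as 7 of the 20909 genes named in the authors' deposited table, and all 7 were found. RNA from livers of Wrn mutant mice was compared with RNA from wild-type livers on 4 two-colour Agilent arrays, each carrying 1 mutant and 1 wild-type animal. Wrn encodes a RecQ-type DNA helicase whose human counterpart is lost in Werner syndrome, in which ageing starts early. Mutant and wild-type mice alike were untreated C57Bl/6 males, 3 months old, with food always available. Their 12 h light and 12 h dark phases were reversed. The sample labels do not name the mutant allele. The mutant RNA was in Cy3 in pairs 1 and 2 and in Cy5 in pairs 3 and 4. Each value below is a log2 ratio of mutant over wild type, so that -1 stands for a 2-fold lower value in the mutant. That direction is likely, not stated: its basis is that the mutant comes first in sample titles and in what the deposited table is called, and every sign would turn if wild type were the numerator. The probe for Wrn itself stood at 1.77, 0.91, 1.12 and 1.37 in pairs 1 to 4, above 0 in every pair. Its mean was 1.29 ± 0.37 (SD, n = 4, limma unadjusted p = 0.00383, adjusted p = 0.736). As the altered stretch of Wrn is not named in the labels, this checks neither the genotype labels nor the direction.

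Metallothioneins are small cysteine-rich proteins that bind zinc and copper in the cytosol. The transcription factor MTF1 senses free zinc and switches their genes on through metal response elements, and in liver glucocorticoids and interleukin-6 raise them as well during inflammation. Cytosolic zinc is lowered by the ZnT carriers of the Slc30 family and raised by the ZIP carriers of the Slc39 family, among which Slc39a14 is known as the importer that hepatocytes raise in the acute phase response.

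The windows around the annotated starts of Mt1, Mt2 and the zinc exporter gene Slc30a1 are shown because these genes are classic MTF1 targets, and both metallothionein genes had lower mean ratios than Slc30a1. The windows come from RefSeq on GRCm38.p6, all on the plus strand, at chr8:94178839-94179138 for Mt1, chr8:94172368-94172667 for Mt2 and chr1:191906531-191906830 for Slc30a1. Each holds 250 bases before and 50 after the annotated start, and capitals mark the core of the metal response element, TGCACNC or TGCGCNC, on either strand.
Mt1: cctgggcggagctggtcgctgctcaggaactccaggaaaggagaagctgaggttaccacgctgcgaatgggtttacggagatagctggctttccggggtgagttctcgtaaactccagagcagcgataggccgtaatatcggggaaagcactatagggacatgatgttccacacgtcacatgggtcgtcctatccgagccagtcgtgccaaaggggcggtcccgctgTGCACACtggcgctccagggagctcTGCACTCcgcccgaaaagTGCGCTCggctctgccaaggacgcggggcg
Mt2: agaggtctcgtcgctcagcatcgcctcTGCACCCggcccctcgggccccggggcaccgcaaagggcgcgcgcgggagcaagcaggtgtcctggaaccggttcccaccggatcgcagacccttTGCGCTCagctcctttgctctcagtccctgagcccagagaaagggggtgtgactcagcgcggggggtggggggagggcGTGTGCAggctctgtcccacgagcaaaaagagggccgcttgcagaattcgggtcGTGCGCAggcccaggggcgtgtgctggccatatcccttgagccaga
Slc30a1: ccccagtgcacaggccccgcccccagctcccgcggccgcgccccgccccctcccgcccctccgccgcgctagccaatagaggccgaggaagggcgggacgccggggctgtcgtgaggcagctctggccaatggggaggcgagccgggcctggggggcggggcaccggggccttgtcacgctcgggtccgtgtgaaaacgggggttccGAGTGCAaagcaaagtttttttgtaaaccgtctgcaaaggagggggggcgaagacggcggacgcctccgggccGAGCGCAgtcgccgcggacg

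Mt1 held 3 such cores, Mt2 held 4 and Slc30a1 held 2, where overlapping matches count once. Of 32851 windows of the same length around all annotated starts, 6.14% held at least 2 cores, 1.31% at least 3 and 0.295% at least 4. Among the other members with a window, Slc30a10 had 2 cores and Mtf1 had 0. Mt3 and Mt4, the remaining metallothionein genes of the cluster, had 1 each, and 25.7% of all windows held at least 1. A match to the antioxidant response element core TGACNNNGC occurred once near Mt2 and once near Slc30a1, against 12.4% of all windows. The STAT site TTCNNNGAA (8.30% of windows) and the E-box CACGTG (7.15%) matched in none of these 7 windows. A match is a description of the letters, and only this window around 1 annotated start per gene was searched. Promoter sequence beyond the window was not searched, including what follows the last Mt1 core at bases 20 to 26 after its annotated start. The counts therefore do not show which elements a gene has or lacks in its whole promoter.

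**Figure D1:**
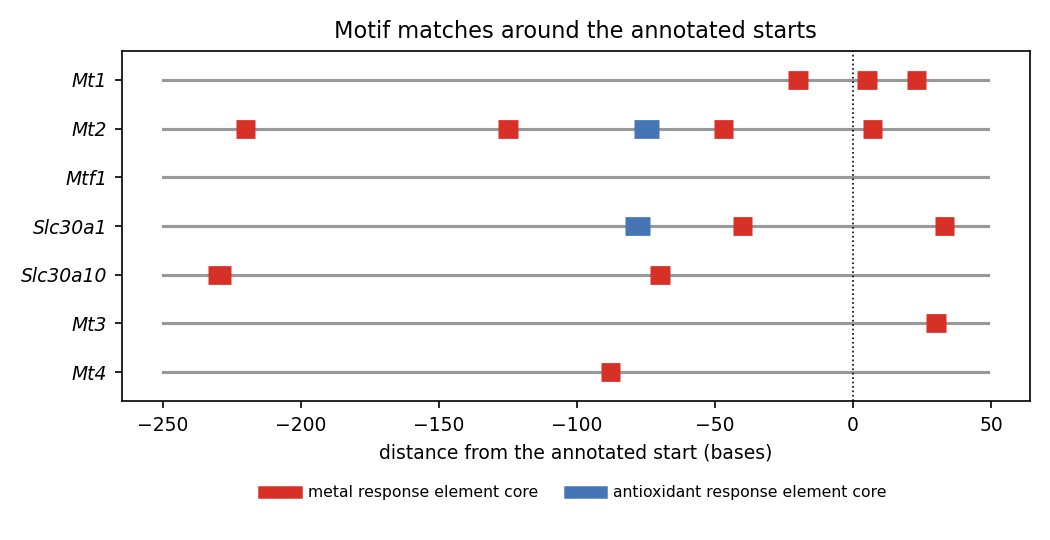
Positions of motif matches in bases from the annotated start (0) for 5 members and for Mt3 and Mt4. Red bars are metal response element cores and blue bars antioxidant response element cores; Mt2 carries 4 red bars, Mt1 carries 3 and Mtf1 none.

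The question was how transcript levels in liver compare between Wrn mutant and wild-type mice. Both metallothionein genes read lower in the mutant in 4 of 4 pairs, and so did the zinc importer gene Slc39a4, while the other 4 members had values on both sides of 0. Being lower in all 4 pairs was the case for 10.1% of the 17686 named genes with 4 values. By mean, 5 members were negative and 2 positive, against 46.6% and 53.4% of these genes. None of the 7 members passed the test over all probes, in which limma with a dye term called 0% of 40238 probes at an adjusted p of 0.05. Genes with very different unadjusted p shared the adjusted p of 0.736 in this fit, so that value does not rank them. Among them were the serum amyloid gene Saa1 (limma unadjusted p = 2.7e-05) and the metallothionein gene Mt4 (limma unadjusted p = 0.0998). In bulk tissue, fewer cells of a type and less RNA per cell cannot be told apart.

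Mt2 had log2 ratios of -0.75, -2.85, -6.52 and -2.40 in pairs 1 to 4. All were negative, pair 3 lay far below the others and pair 1 nearest to 0. The mean was -3.13 ± 2.43 (SD, n = 4), or 8.75-fold lower in the mutant, with pairs from 1.68-fold to 91.6-fold lower. With the average log2 intensity of 10.1 that the authors deposited, this mean corresponds to log2 intensities of 11.7 in wild type and 8.56 in the mutant. The 95% interval of the limma fit ran from -5.44 to -0.82, with an unadjusted p of 0.0198 and an adjusted p of 0.736 over all probes. Without pair 3 the mean was -2.00, smaller in size by over 1.5 times.

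Mt1 followed with log2 ratios of -0.14, -2.91, -4.69 and -1.35 in pairs 1 to 4. Pair 3 was again the lowest, and pair 1 was close to equal, at 1.10-fold lower. The mean was -2.27 ± 1.97 (SD, n = 4), or 4.83-fold lower, with a 95% interval from -4.44 to -0.099 (limma, unadjusted p = 0.0440, adjusted p = 0.736). It was -1.47 without pair 3. For Mt1 the authors' deposited table gives a log2 fold change of -2.65 with a p of 0.0501, which is not the mean of its 4 deposited ratios. Such a mismatch of over 1e-04 occurred for 149 of the 17686 genes with 4 values, and for Mt1 alone among the members. No source used here gives its cause.

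Mt2 ranked 5th and Mt1 10th from the lowest mean among the 17686 genes, so that few named genes had lower ratios. Their spread was also wide: 98.8% of genes had a smaller SD than Mt2 and 96.9% a smaller SD than Mt1, while the median SD was 0.48. By exact sign-flip test (two-sided, 4 pairs) p was 0.125 for each, the smallest that 4 pairs allow. The ratio of Mt1 exceeded that of Mt2 by 0.60, -0.056, 1.83 and 1.05 in pairs 1 to 4, a mean difference of 0.86 ± 0.79 (SD, n = 4) that did not separate from 0 (exact sign-flip p = 0.25) and was 0.53 without pair 3. The genes are close paralogues, and cross-hybridisation between their probes was not tested.

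**Figure D2:**
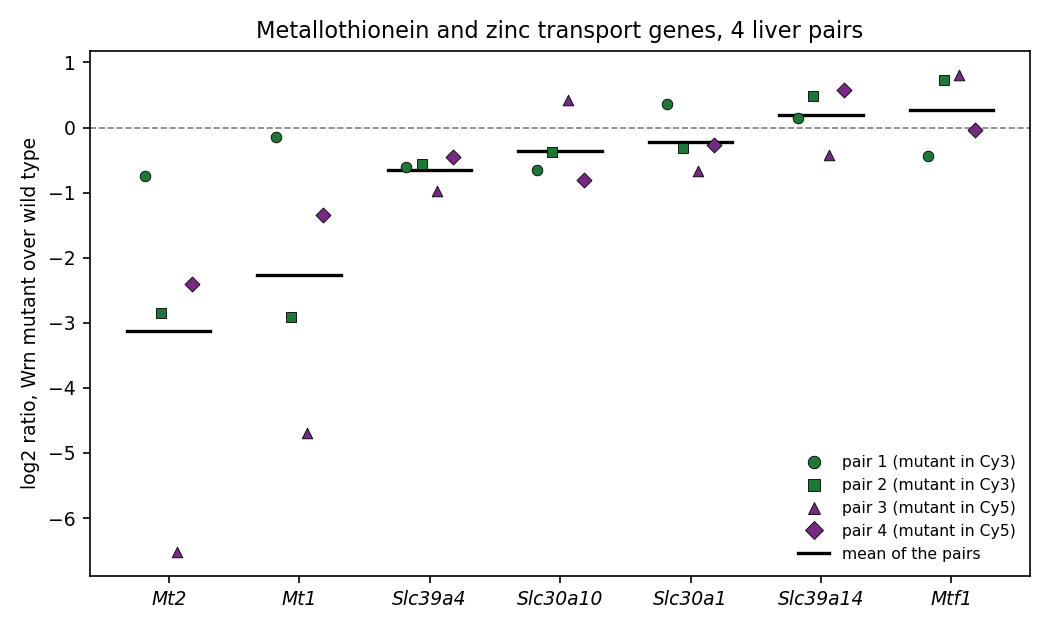
Log2 ratio of mutant over wild type for the 7 members, ordered by mean; each symbol is 1 pair, colour gives the dye of the mutant RNA, and black bars are means of the 4 pairs. Mt2 and Mt1 span 5.77 and 4.55 log2 units with every pair below 0, and the other members stay between -0.98 and 0.81.

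Mt1, Mt2, Mt3 and Mt4 lie next to each other on mouse chromosome 8, in the order Mt4, Mt3, Mt2, Mt1, with 6471 bases between the annotated starts of Mt2 and Mt1 and 41885 between those of Mt4 and Mt1. Mt3, best known from brain, had ratios of 0.52, -0.0038, 0.081 and -0.47, centred on 0.033 ± 0.41 (SD, n = 4). Mt4, best known from stratified epithelium, had ratios of -2.72, 0.80, -2.54 and -1.31, with a mean of -1.44 ± 1.62 and an adjusted p of 0.736 (limma). Pair 2 of Mt4 went against the other 3, and only 0.985% of named probes were dimmer than its probe. The 3 protein-coding genes on each side of the cluster had means from -0.39 for Ogfod1 to 0.66 for Slc12a3, the latter from 3 pairs. Nudt21, with a role in messenger RNA 3' end processing, had ratios of 0.91, 0.97, 0.13 and 0.098 in pairs 1 to 4. All were above 0, but those with the mutant in Cy5 were close to it. The mean was 0.53 ± 0.47 (SD, n = 4, limma adjusted p = 0.736). Ogfod1 was below 0 in 4 of 4 pairs, at -0.084, -1.24, -0.10 and -0.15. Its mean was carried by pair 2 (limma adjusted p = 0.764), and its probe was dim, with an average log2 intensity of 5.87.

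Mtf1, the zinc sensor, had log2 ratios of -0.44, 0.73, 0.81 and -0.032 in pairs 1 to 4. Both signs occurred within each dye orientation, and pair 3, the lowest pair for both metallothioneins, was the highest for their regulator. The mean was 0.27 ± 0.61 (SD, n = 4), with a 95% interval from -0.55 to 1.08 and an adjusted p of 0.832 (limma). At an average log2 intensity of 5.97, below the median of 6.40 over named probes, Mtf1 had the dimmest probe of the members. The mean was 0.087 without pair 3, 0.11 without pair 2 and 0.50 without pair 1.

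Slc30a1, the plasma membrane exporter ZnT1 and an MTF1 target, had log2 ratios of 0.35, -0.31, -0.67 and -0.27. Pair 1 was above 0 and the others below, with pair 3 lowest. Its mean of -0.22 ± 0.42 (SD, n = 4) had a 95% interval from -0.77 to 0.33 (limma adjusted p = 0.806). It was -0.074 without pair 3 and -0.41 without pair 1. Slc30a1 shared the order of its lowest and highest pair with both metallothioneins, but on a scale of 1.02 log2 units.

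Mt2 lay below Slc30a1 in 4 of 4 pairs, with a difference of -2.91 ± 2.06 (SD, n = 4), and so did Mt1, with -2.05 ± 1.59. Against Slc39a14, the differences were -3.32 ± 2.14 for Mt2 and -2.47 ± 1.74 for Mt1, again negative in 4 of 4 pairs. Against Mtf1 they were -3.40 ± 2.95 for Mt2, negative in 4 of 4 pairs, and -2.54 ± 2.55 for Mt1, negative in 3 of 4. Without pair 3, Mt2 minus Slc30a1 was -1.93, Mt2 minus Mtf1 was -2.09 and Mt1 minus Mtf1 was -1.55, each smaller in size by over 1.5 times. The exact sign-flip p was 0.125 for each difference seen in 4 of 4 pairs (0.175 after Benjamini-Hochberg adjustment over the 7 differences computed). It was 0.25 for Mt1 against Mtf1 (0.25 adjusted). As 0.125 is the smallest p that 4 pairs allow, the test cannot grade differences of the same sign in every pair.

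Slc30a10, a manganese exporter in spite of its place in the ZnT family, had log2 ratios of -0.66, -0.38, 0.42 and -0.81. Here pair 3 was the highest and the only one above 0. The mean of -0.36 ± 0.55 (SD, n = 4) had a 95% interval from -1.09 to 0.38 (limma adjusted p = 0.784). It was -0.61 without pair 3 and -0.20 without pair 4.

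Slc39a4, the importer ZIP4 that takes up dietary zinc in the intestine, was the steadiest member. Its log2 ratios were -0.61, -0.56, -0.98 and -0.45, all negative and within 0.53 log2 units of each other. The mean of -0.65 ± 0.23 (SD, n = 4), or 1.57-fold lower, had a 95% interval from -1.13 to -0.18 (limma, unadjusted p = 0.0191, adjusted p = 0.736). Leaving out 1 pair moved it only between -0.72 and -0.54, and only 17.8% of genes had a smaller SD. Of 6 intestinal epithelium markers 4 were found, with a median ratio of -0.12. The probes for Vil1, Cdx2 and Muc2 had average log2 intensities of 5.28, 5.44 and 5.43, below the median named probe, and that for Fabp2, with 11.0, did not. Fabp2, which encodes the intestinal fatty acid binding protein, was higher in 4 of 4 pairs, at 0.99, 0.73, 1.17 and 0.55. Its mean was 0.86 ± 0.27 (SD, n = 4, limma unadjusted p = 0.00999, adjusted p = 0.736). The Slc39a4 probe itself had an average log2 intensity of 10.9, with 92.5% of named probes dimmer. Whether intestinal tissue has a part in the Slc39a4 ratio was not tested.

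Slc39a14, the hepatic importer ZIP14 that carries zinc, iron and manganese, had log2 ratios of 0.15, 0.48, -0.42 and 0.57. It was above 0 in 3 of 4 pairs, and only pair 3 was below. The mean was 0.19 ± 0.45 (SD, n = 4), with a 95% interval from -0.46 to 0.85 (limma adjusted p = 0.845). It was 0.40 without pair 3, 0.099 without pair 2 and 0.070 without pair 4. Mt1 and Mt2 were lower in pairs 2 and 4 by over 1 log2 unit while Slc39a14 was higher there.

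Of the 7 members 3, Mt2, Mt1 and Slc39a4, had an unadjusted p under 0.05 with a negative ratio, where 4.36% of named genes with 4 values did, and 0 had one with a positive ratio, against 4.46%. In a fit whose prior variance followed probe intensity, 42 of 20379 named probes (0.206%) passed an adjusted p of 0.05, and 0.137% passed with a negative ratio. None of the members was among them: the adjusted p was 0.106 for Slc39a4, 0.128 for Mt2 and 0.222 for Mt1, and over all alternatives it ran up to 0.932 for each of these. For all 7 members the values of the 2 dye orientations overlapped. With 2 pairs in each orientation, such overlap says little about a dye effect. The share of all named genes with such overlap was not computed. Mt2 averaged -1.80 with the mutant in Cy3 and -4.46 with the mutant in Cy5, Mt1 averaged -1.53 and -3.02, and Slc39a4 averaged -0.59 and -0.72. The dye term of the members had unadjusted p from 0.185 for Mt2 to 0.723 for Slc39a4. The orientations hold different animals, so dye and animal cannot be told apart in it.

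**Figure D3:**
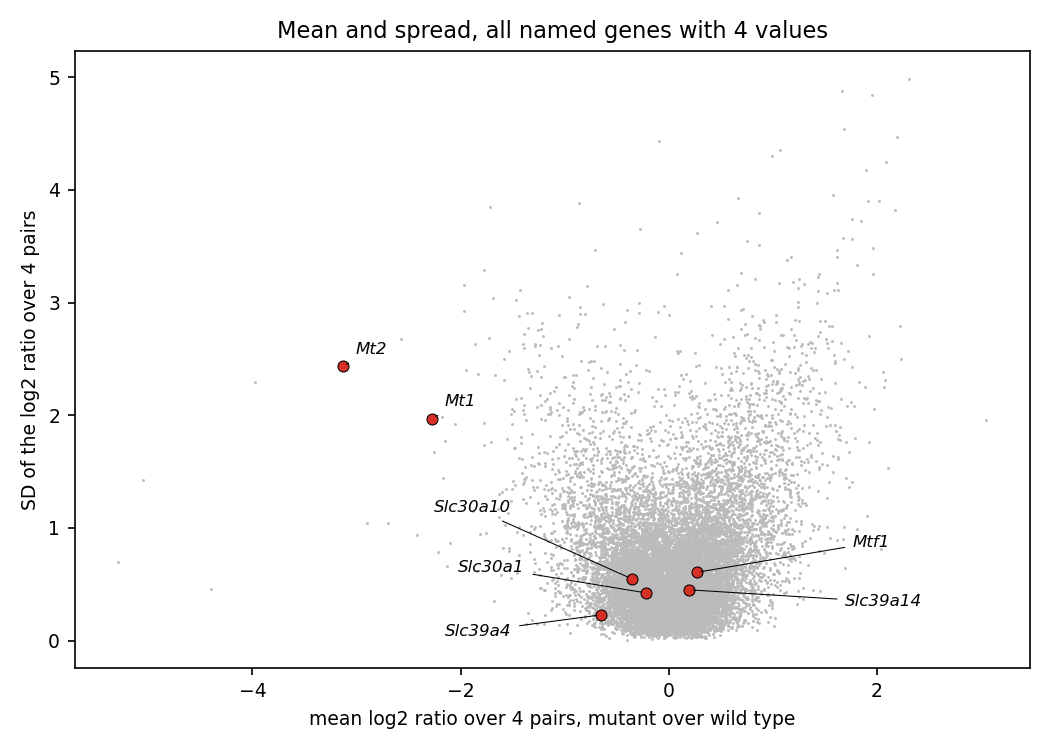
Mean against SD of the log2 ratio over 4 pairs for the 17686 named genes with 4 values (grey) and the 7 members (red). Mt2 and Mt1 lie far to the left with SDs of 2.43 and 1.97, and Slc39a4 lies low with an SD of 0.23.

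Most genes of the 2 zinc carrier families had ratios near 0. Of 24 Slc30 and Slc39 genes 23 could be tested and 0 passed (limma, adjusted p of 0.05), also with the prior that follows intensity. Of the 21 with 4 values, 2 were lower in 4 of 4 pairs, Slc39a4 and Slc39a13, and 1 was higher, Slc30a3, beside 10.1% and 10.9% of named genes. The median ratio was -0.17 for 9 Slc30 genes and -0.076 for 14 Slc39 genes. With 1 pair left out, the Slc30 median ran from -0.22 to -0.11, and the Slc39 median was -0.16 without pair 2 and -0.13 without pair 4. Negative means were found in 15 of the 21 genes, against 46.6% of named genes.

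Among the 16 carriers with a probe brighter than the median, 15 had a mean within 0.5 of 0, and the exception was Slc39a4. Slc39a13, a ZIP carrier of intracellular vesicles, had the smallest spread of these, with ratios of -0.29, -0.39, -0.17 and -0.30. Its mean was -0.29 ± 0.093 (SD, n = 4), with an adjusted p of 0.744 (limma). Slc30a3, the synaptic vesicle carrier ZnT3, stood at 1.05, 0.84, 0.66 and 2.03, on average 1.15 ± 0.61 (SD, n = 4), with an adjusted p of 0.736. Its probe was among the dim ones, with 7.95% of named probes dimmer. Slc39a8, the closest relative of Slc39a14, was at -0.36 ± 0.55, with pair 4 alone above 0. Slc39a10, which MTF1 represses, was at 0.30 ± 0.71, carried by 1.34 in pair 3.

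**Figure D4:**
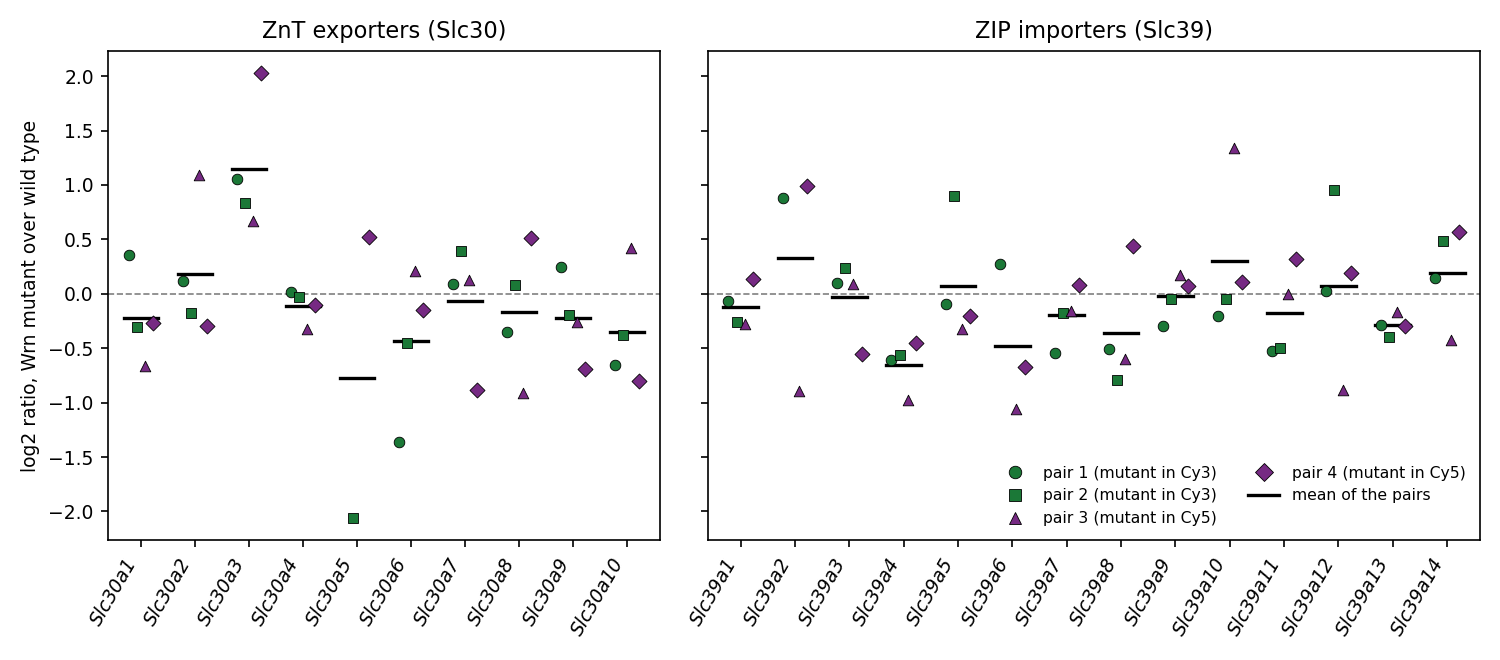
Log2 ratio of mutant over wild type for the 10 Slc30 and 14 Slc39 genes; symbols are pairs, colours the dye of the mutant RNA, and black bars means of the pairs with a value. The bars lie near 0 for most genes, with Slc39a4 at -0.65 and Slc30a3 at 1.15; the bar of Slc30a5 at -0.77 rests on only 2 pairs, at -2.06 and 0.52.

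Other MTF1 targets had mean ratios between -0.15 and 0.41. Of 5 found, 2 had a negative mean, 0 were lower in 4 of 4 pairs and the median was 0.17, against a median of 0.041 over named genes. Gclc, the catalytic subunit of glutamate-cysteine ligase, was higher in 4 of 4 pairs at 0.41 ± 0.34 (SD, n = 4), with an adjusted p of 0.740 (limma). Csrp1, Sepw1, Pgf and Txnrd2 had values of both signs.

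Acute phase genes, which inflammation raises together with metallothioneins, had a median of -0.74 over 23 genes, and 17 of 23 were lower in 4 of 4 pairs. The hepcidin gene Hamp2 was higher in 4 of 4, at 2.04 ± 0.81 (SD, n = 4, limma adjusted p = 0.736), and 3 of 23 had a positive mean. Without pair 4 the median was -1.15. Pair medians were -0.55, -0.84, -1.68 and -0.20, so that pair 3 was the lowest, as for Mt1 and Mt2. In pair 1 the list median of -0.55 was close to Mt2 at -0.75, with Mt1 at -0.14, and the single genes ranged widely. The serum amyloid gene Saa1 was at -4.40, Saa2 at -5.70, Saa3 at -5.10 and the siderophore-binding lipocalin gene Lcn2 at -5.43 there, while Fga was at -0.052, Crp at 0.37, Hamp at 1.18 and both Il1rn and Hamp2 at 2.24. Saa1 had a mean of -4.40 with an SD of 0.46, against 1.97 for Mt1, whereas Saa3 varied about as much as Mt2, with an SD of 2.30 and a value of -0.60 in pair 2.

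Glucocorticoid-responsive genes had a median of 0.12 over 13 genes, with 1 lower and 1 higher in 4 of 4 pairs. The median was 0.047 without pair 1, 0.064 without pair 2, 0.20 without pair 3 and 0.071 without pair 4. Fkbp5, a co-chaperone of the glucocorticoid receptor, stood at -0.95, -1.49, -2.35 and -0.54 in pairs 1 to 4, on average -1.33 ± 0.78 (SD, n = 4, limma adjusted p = 0.736). Per1, a clock gene that glucocorticoids also raise, went the other way, with ratios of 1.48, 0.78, 0.28 and 1.61. Pair 3 was the lowest for Fkbp5 and for Per1 alike.

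Marker lists of several liver cell types differed among the pairs, and others did so less. Hepatocyte markers had medians of 0.26, 0.32, -0.26 and -0.033 over 9 of 10 genes, at average log2 intensities from 9.07 to 15.8. Kupffer cell and macrophage markers had medians of 0.84, 1.07, -0.12 and 0.88 over 10 of 11 genes, so that pair 3 stood apart from the other 3 there as well. All 10 had a positive mean. Neutrophil markers were dim, with average log2 intensities up to 6.45 for the 8 of 8 found and a median ratio of 0.22. Cholangiocyte markers had pair medians that varied little, at -0.63, -0.59, -0.37 and -0.48. Single markers varied more, as Krt19 ran from -2.56 to 0.14 and Krt7 had values of both signs. Their average log2 intensities ran from 6.26 to 10.5, with a median of 6.74. The mean was negative for 6 of these 7 markers, and 4 had a negative ratio in every pair. All 5 B cell markers had a positive mean, with a median of 0.87. Sinusoidal endothelium had a median of 0.28 and stellate cells one of -0.19, over 8 markers each, and 7 exocrine pancreas markers one of -0.16. The part of these cell types in the metallothionein ratios was not tested, and the arrays give ratios and no level per animal.

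**Figure D5:**
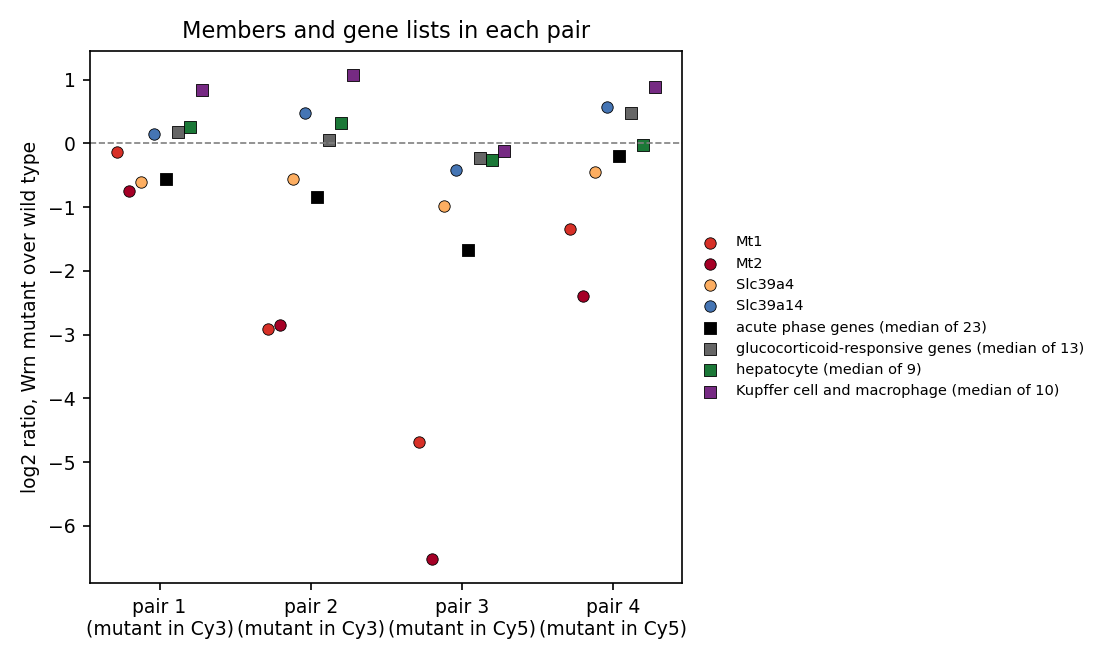
Log2 ratio of mutant over wild type in each pair for 4 members (circles) and medians of gene lists (squares). In pair 3 Mt2 is at -6.52, Mt1 at -4.69 and the acute phase median at -1.68, and the macrophage median is at -0.12 against 0.84 to 1.07 elsewhere.

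The genes whose 4 ratios lay nearest to those of Mt2, by root mean square difference over the 4 pairs among 17686 genes, were Mt1 at 1.10, Fgl1 at 1.33, Orm3 at 1.47, Orm2 at 1.62 and C030039E19Rik at 1.78. Fgl1 is a liver-secreted fibrinogen-like protein, and Orm2 and Orm3 encode acute phase orosomucoids. Fgl1 had ratios of -1.98, -2.45, -4.22 and -2.12, with pair 3 lowest. For Mt1 they were Olfr926 at 0.96, C030039E19Rik at 1.00, Orm2 at 1.01, Fgl1 at 1.05 and Mt2 at 1.10. The probes for Olfr926 and C030039E19Rik had average log2 intensities of only 4.45 and 4.17. For Slc39a14 the nearest were Pigr, EG432995, 2010316F05Rik, Pomc and Sepx1, at 0.071 to 0.092. Pigr, the polymeric immunoglobulin receptor, had ratios of 0.28, 0.45, -0.47 and 0.57.

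Over the whole series, the 4 arrays had values for 37627 to 40104 of 41174 probes, with median log2 ratios from 0.0037 to 0.018. All 7 members had a value on every array. Beside the 0 probes called by limma with a dye term, 2673 of 40238 had an unadjusted p under 0.05. Without the dye term these numbers were 0 and 2328. Each pair is described as an independent biological replicate, and their number limits the precision of every value.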

How the data were processed

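Each of 4 two-colour arrays carried RNA of 1 Wrn mutant and 1 wild-type mouse liver, and its log2 ratios, as the authors deposited them, are the values analysed. Per the file headers, the deposited gene table adds per gene an average log2 intensity, a log2 fold change and a p-value. Limma is named in the submitters' processing notes, whereas no source used here gives its version, background correction or normalization. The table names 20909 of 41174 probes with 1 symbol each, and members were matched by symbol and accession.

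Ratios were fitted in R 4.3.3 with limma 3.58.1 (lmFit, eBayes) on genotype plus a dye term, for the 40238 probes with at least 3 values, with p-values adjusted by Benjamini-Hochberg over these probes and a threshold of 0.05. The script was tested on simulated data. Exact sign-flip tests used the 4 pairs. Lists are described by counts and medians. Lists were matched by accession first, then by printed symbol. Sequences are from RefSeq, GRCm38.p6; 5 of 7 members have a window. The members and lists were chosen with earlier results of these data known. Beside the members, up to 4 genes per list were named that had the same sign in 4 of 4 pairs and an absolute mean of at least 0.5, largest first, and for Mt1, Mt2 and Slc39a14 the 5 genes with the nearest ratios; Slc39a13, Slc39a8, Slc39a10, other MTF1 targets, Atp7b, Alb, Crp, Fga, Hamp, Hamp2, Il1rn, intestinal markers and the neighbours of the metallothionein cluster were singled out after their values were seen. Alternatives were leaving out the dye term, turning the ratios of pairs 3 and 4, centring, scaling, a prior following intensity, robust eBayes, named, bright or complete probes only, array weights, and leaving out each pair without a dye term.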

Additional observations from a re-analysis of the deposited data

Results flagged for a closer look

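In 56 sets of 4 ratios, for single genes and for list medians, 0 held a pair that stood outside the rest by Dixon's test, and about 2.8 would by chance. These sets did not cover every gene named above, so the count says nothing about genes outside them. Ogfod1 lay outside them, with -1.24 in pair 2 against -0.084, -0.10 and -0.15 in pairs 1, 3 and 4.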

How the results depend on the processing

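The means of all 7 members kept their direction and stayed above the adjusted threshold in each of the 14 fits tried, with 1 exception. Mtf1 was too dim for the fit on bright probes. The exception is the opposite reading of the dye swap, in which the ratios of pairs 3 and 4 are turned: Mt2 was then at 1.33, Mt1 at 0.75, Slc30a1 at 0.25, Slc39a4 at 0.065 and Mtf1 at -0.12, while Slc30a10 and Slc39a14 kept their signs. The list medians that moved with that reading by more than their spread between pairs were the metallothionein family at 0.62 (against -1.86), Slc30 genes at 0.031 (against -0.17), other MTF1 targets at 0.0011 (against 0.17), copper handling genes at 0.0076 (against 0.10) and acute phase genes at 0.0086 (against -0.74). How the deposited ratios were turned is not stated, and for 17537 of 17686 genes the authors' deposited table averages them without a change of sign. With 1 pair left out, the median of other MTF1 targets ran from 0.080 to 0.30 and that of copper handling genes from 0.040 to 0.20. The median of NRF2 targets, -0.016 with all pairs, then ran from -0.13 to 0.083 and so changed sign. Other list medians that moved by over 1.5 times with 1 pair left out stand beside their results. With the opposite reading some medians moved by less than their spread between pairs. Slc39 genes were then at 0.010, zinc-binding proteins and enzymes at 0.040, NRF2 targets at 0.016 and glucocorticoid-responsive genes at 0.064. On bright probes alone, other MTF1 targets were at 0.10 and NRF2 targets at 0.099. The prior that follows intensity called 42 probes, 6 of them acute phase genes of the lists (with Colec11 from the stellate cell markers besides), and bright probes alone gave 1 call, Saa1, against 0. In the 150 bases at the downstream end of the window, Mt2 had 2 metal response element cores and Slc30a10 had 1. The 7 differences between members kept their direction under the median over pairs and without any 1 pair, and those that moved by over 1.5 times without pair 3 are given beside them; with 3 pairs the smallest sign-flip p is 0.25. Every fit and sign-flip test is already paired, since each ratio sets the mutant against the wild type of its own array. Signal over background was not analysed here.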

Other observations

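Copper, which metallothioneins also bind, has its own handling genes, and most of them stayed near 0. Of 9 genes, 7 had a positive mean, 2 were lower and 3 higher in 4 of 4 pairs, and the median log2 ratio was 0.10. Cp, the plasma ferroxidase ceruloplasmin and also an acute phase protein, stood at -0.39, -0.93, -1.54 and -0.93 in pairs 1 to 4, on average -0.95 ± 0.47 (SD, n = 4). Slc31a1, the copper importer CTR1, had ratios of -0.16, -0.78, -2.78 and -0.042, so that its mean of -0.94 ± 1.27 was carried by pair 3. The exporter gene Atp7b, which loads copper onto ceruloplasmin, had values of both signs. Neither Cp nor Slc31a1 passed over all probes (limma adjusted p = 0.736 and 0.746).

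Among 11 genes for zinc-binding plasma proteins and zinc enzymes, the median was -0.16, with 2 lower and 2 higher in 4 of 4 of the 9 with 4 values. It was -0.0018 without pair 3 and -0.10 without pair 2. The carbonic anhydrase genes parted: Car3 was at 0.88 ± 0.56 (SD, n = 4) and Car2 at -0.60 ± 0.21, each with 1 sign in 4 of 4 pairs. Pam, a copper-dependent peptide-amidating enzyme, was at 0.56 ± 0.26. Albumin, which carries most plasma zinc, was at -0.16 ± 0.095. Of 10 NRF2 targets 5 had a negative and 5 a positive mean, and Gsta1, a glutathione transferase gene, was higher in 4 of 4 pairs at 0.57 ± 0.23. None of these genes passed the test over all probes.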
